A study of Mus musculus with 6 samples.

Results

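The nuclear genes of respiratory complexes II to V are described here in cells sorted from the kidneys of Trf1+/+ and Trf1flox/flox mice. Members were chosen by symbol alone, as genes named Sdha to Sdhd, Uqcr, Cyc1, Cycs, Cox4 to Cox8, Cox10 to Cox19 or Atp5, without pseudogenes, and 52 of the 12125 listed genes met that rule. They comprise 4 genes of complex II, 9 of complex III, Cycs, 13 of complex IV, 17 of complex V and 8 Cox-named assembly factors of complex IV. Every member passed the minimum of 10 normalized counts in at least 3 libraries, which 9966 genes met. The Cox4i2, Cox6a2, Cox7b2, Cox8b and Cox8c symbols have no row in the table used here, so Cox4i1, Cox6a1 and Cox8a could not be set against their tissue-specific partners.

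The study asked what the loss of TRF1, a protein of the telomere cap encoded by Terf1, does in kidney fibroblasts. Both groups carried Col1a2-CreERT2, a Cre recombinase driven by a collagen promoter and released by tamoxifen, and the KFP reporter, a red fluorescent protein that Cre switches on. They differed in Trf1, which was intact in Trf1+/+ mice and flanked by lox sites on both copies in Trf1flox/flox mice. Male and female animals aged 6 to 8 weeks received tamoxifen in the abdomen 3 times a week for 8 weeks. For each of 3 mice per genotype, RNA of 500 cells sorted with CD29 (an integrin) and KFP was copied from the poly(A) tail, amplified and sequenced, and whether the sequenced cells carried both markers is not given in the sources used here.

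The electrons of succinate enter the respiratory chain at complex II, pass through ubiquinol to complex III, travel on cytochrome c to complex IV and there reduce oxygen. Complexes III and IV pump protons across the inner mitochondrial membrane, and complex V, the ATP synthase, uses the returning protons to make ATP. Complex II is encoded wholly in the nucleus, whereas the catalytic centers of complexes III and IV and the proton channel of complex V also need subunits encoded in mitochondrial DNA. Kidney tubule epithelium is rich in mitochondria, and its salt and solute transport runs largely on ATP from this chain.

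Several facts of the libraries bear on every value that follows. The listed genes held 10263382 to 12248797 reads per library. The library labelled Trf1+/+ replicate 1 stood apart, with 8967 genes above 0 against 9733 to 11593 in the other 5 libraries and a median normalized count of 13.4 against 118 to 148. Its Terf1 value was 0.891 normalized counts, a single read, while Trf1+/+ replicates 2 and 3 had 253 and 235. Trf1flox/flox replicates 1 to 3 had 110.0, 7.65 and 12.4. In both groups the Terf1 value of replicate 1 goes against its label. Of all tested genes, at any level of expression, 50.2% had at most 3 reads in some library. How often genes at the level of Terf1 fall that low was not examined, and a single read does not settle the genotype. Fibroblast markers were nearly absent, as 2 of 11 were listed and their summed level was 1.66 to 94.6 normalized counts in Trf1+/+ against 2.58 to 98.4 in Trf1flox/flox libraries. Proximal tubule markers (12 of 12 listed) summed to 16189 to 95778 and 24118 to 124115 normalized counts, and loop and distal tubule markers (10 of 10 listed) to 99246 to 163986 and 74643 to 171512, so the members are described as those of the sorted kidney cells. Erythroid markers (5 of 5 listed) summed to 52403 normalized counts in Trf1flox/flox replicate 3 against 121 to 10472 in the other 5 libraries, and their part in the values of that library was not tested. In such pooled RNA, fewer cells of a type and less RNA per cell cannot be told apart.

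No nuclear gene of complexes II to V passed the test between the genotypes. With limma on log2(normalized count + 1), 0 of 52 members had an adjusted p under 0.05, against 0% of all tested genes, and their lowest adjusted p was 0.996. At an unadjusted p under 0.05, 0 of 52 members passed, against 3.54% of all tested genes in the higher direction and 1.01% in the lower. edgeR and DESeq2 on the recovered reads also called 0 members at an adjusted p under 0.05 and 0 at an unadjusted p under 0.05, although DESeq2 called 58 other genes. Of the 52 log2 fold changes, 47 were smaller in size than their limma standard error. Fitted without a mean-variance trend, that error also draws on the spread of all tested genes. The median SD within groups was 2.17 on the log2 scale over all tested genes, against 0.51 over the subunit genes. A p above the threshold does not show that the levels were alike, and the intervals stayed wide: the standard errors of the 43 subunit genes other than Cox6b2 ran from 0.72 to 0.86 on the log2 scale.

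The point estimates leaned lower in Trf1flox/flox. Of 52 members, 41 had a log2 fold change below 0, against 44.1% of all tested genes, and their median was -0.24 against 0.20 over all tested genes. Among the 1204 tested nuclear genes averaging at least 1000 normalized counts, a level that 41 of the 44 subunit genes reached, the median was -0.21, and it was -0.25 over the subunit genes. Without the library labelled Trf1+/+ replicate 1 the member median was -0.07 and that of all tested genes -0.03, with 31 members below 0. Without Trf1+/+ replicate 3 they were -0.53 and 0.30, with 46 members below 0. By edgeR the member median was -0.22 and that of all tested genes -0.04, so the gap of -0.44 under limma was -0.18 there. After rescaling to the same upper quartile, which moved the median of all tested genes to 0.38, the member median was -0.03 and 30 members were below 0, and the gap to all tested genes was -0.41. The plot of fold changes by complex shows the same values gene by gene.

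**Figure D1:**
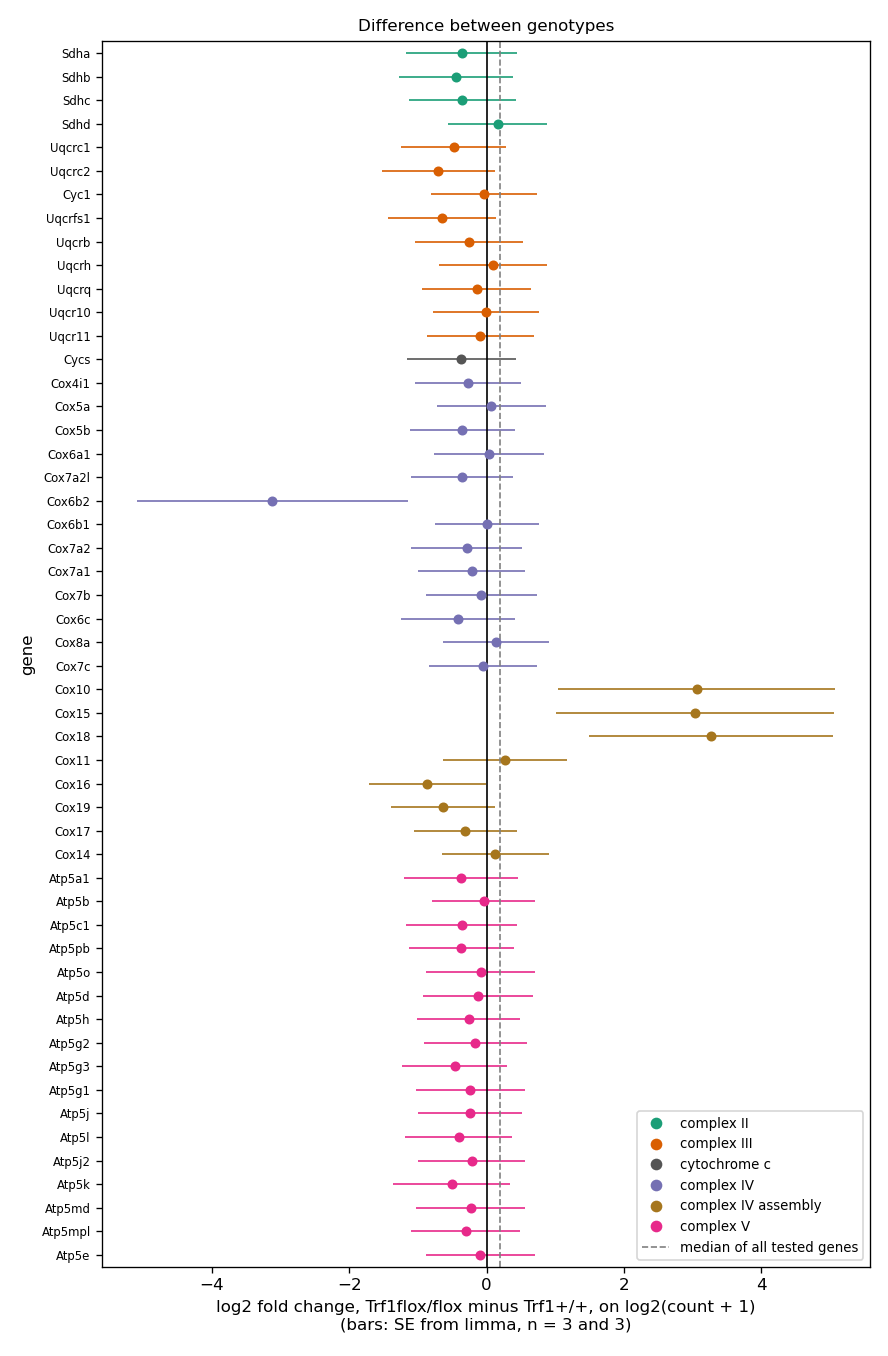
Log2 fold change (Trf1flox/flox minus Trf1+/+, on log2(normalized count + 1), x axis) of each of the 52 members (y axis), colored by complex. Points are limma estimates from 3 and 3 libraries, and the dashed line is the median of all tested genes (0.20). Bars are 1 limma standard error, which also draws on the spread of all tested genes. All 17 complex V genes lie below 0 with bars that cross it, and Cox6b2, Cox10, Cox15 and Cox18 have the longest bars.

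Complex II, the succinate dehydrogenase of the citric acid cycle, varied mainly through a single library. Sdha, the flavoprotein that oxidizes succinate (GRCm38, chromosome 13, 74322254 to 74350280), reached 14770, 5710 and 6099 normalized counts in Trf1+/+ against 7034, 6886 and 5029 in Trf1flox/flox libraries. Sdhb, the iron-sulfur subunit that carries the electrons onward (chromosome 4, 140961203 to 140979193), had 32284, 14520 and 9023 against 11417, 12289 and 11966. For both genes the library labelled Trf1+/+ replicate 1 was highest by a wide margin, and the other 5 libraries overlapped.

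The Trf1flox/flox mean of Sdhb was 11891 ± 441 (SD, n = 3) and the Trf1+/+ mean 18609 ± 12158 (SD, n = 3), and the log2 difference was -0.44 (standard error 0.83, adjusted p = 0.996 from limma). For Sdha the log2 difference was -0.36 (standard error 0.81). Without the library labelled Trf1+/+ replicate 1, these became 0.05 for Sdhb and 0.08 for Sdha. Sdhd, a membrane anchor that helps bind ubiquinone, was the most even of the 44 subunit genes, with 3908, 2842 and 3310 in Trf1+/+ and 4004, 3525 and 3665 in Trf1flox/flox, and its log2 fold change of 0.16 (standard error 0.72) was the highest of the subunit genes. The other anchor, Sdhc, ran from 2661 to 6233 with a log2 fold change of -0.35. Summed over the complex, the levels were 57195, 28164 and 21094 against 25341, 26172 and 24704, with an SD of 736 among the Trf1flox/flox libraries and of 19131 among the Trf1+/+ libraries.

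Complex III, the ubiquinol-cytochrome c reductase, had 8 of its 9 estimates below 0. Uqcrc2, a core protein that faces the matrix, had 12411, 4994 and 3856 normalized counts in Trf1+/+ against 3640, 4123 and 3708 in Trf1flox/flox, which is a log2 difference of -0.70 (standard error 0.83, adjusted p = 0.996 from limma). The library labelled Trf1+/+ replicate 1 stood far above the other 5, which overlapped. Uqcrfs1, the Rieske iron-sulfur protein (chromosome 13, 30540308 to 30545362), had 21561, 17493 and 8748 against 9188, 11017 and 8466, a log2 difference of -0.65 (standard error 0.79). Here 2 Trf1+/+ libraries lay above all others and the third within the Trf1flox/flox range. Without the library labelled Trf1+/+ replicate 1, Uqcrc2 was at -0.20 and Uqcrfs1 at -0.38. By edgeR and DESeq2, Uqcrc2 had the lowest p of any member (unadjusted p = 0.109 and 0.113).

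Cyc1, the heme subunit that hands electrons to cytochrome c (chromosome 15, 76343523 to 76346260), had 9718, 4868 and 4352 against 5693, 6511 and 5163 with a log2 difference of -0.04 (standard error 0.77). That estimate turned to 0.32 without the library labelled Trf1+/+ replicate 1. The gene of the other core protein, Uqcrc1, had 18105, 9702 and 8787 against 8474, 8797 and 7667, with the same library on top. The small subunits behaved otherwise: Uqcrh, the acidic hinge protein beside cytochrome c, had 5970, 9514 and 3777 against 5244, 6673 and 7360, so its highest library was Trf1+/+ replicate 2, and its log2 fold change of 0.09 (standard error 0.79) was the highest in the complex. Uqcrb, Uqcrq, Uqcr10 and Uqcr11, which pack around the cytochrome b core, had log2 fold changes from -0.25 to -0.01. Cycs, the soluble electron carrier that also triggers apoptosis when released (chromosome 6, 50562563 to 50566538), had 20904, 14482 and 9335 against 7435, 12346 and 14336, and the groups overlapped (log2 difference -0.37, standard error 0.80).

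Complex IV, the cytochrome c oxidase, showed overlapping groups in each of its 13 subunit genes. Cox4i1, the largest nuclear subunit (chromosome 8, 120668222 to 120674207), had 22317, 21263 and 11143 normalized counts in Trf1+/+ against 15084, 11910 and 16843 in Trf1flox/flox, with overlapping groups and a log2 difference of -0.27 (standard error 0.77). Per kilobase of transcript it had the highest mean level, 22049 normalized counts per kilobase, among the 41 subunit genes whose annotated principal transcripts differ by at most 1.5 times in length. Cox6a1 had 7347, 14323 and 7350 against 6571, 9369 and 13604. Cox8a had 6410, 10210 and 5809 against 5435, 9179 and 10203, and its log2 fold change of 0.14 (standard error 0.78) was the highest in the complex. In these 2 genes of small subunits the library labelled Trf1+/+ replicate 1 was not on top: Trf1+/+ replicate 2 and Trf1flox/flox replicate 3 were.

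Where partner isoforms were listed, the common form dominated in every library. Cox7a2, the broadly expressed form, had 6319, 9403 and 4397 against 3871, 4435 and 8368, and Cox7a1, the heart and muscle form, had 325, 554 and 233 against 240, 352 and 315. Per kilobase, Cox7a1 made up 7.94%, 9.0% and 8.15% of the pair in Trf1+/+ and 9.41%, 11.7% and 5.94% in Trf1flox/flox libraries, and these shares overlapped. Cox6b2, known as the testis form of a subunit that links the dimer, had 18.7, 78.7 and 39.4 in Trf1+/+ and 0, 0 and 95.8 in Trf1flox/flox. It held 0% to 1.15% of the Cox6b pair per kilobase, and the rest was Cox6b1.

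Cox6b2 had the most negative estimate of any member, -3.12 (standard error 1.97, unadjusted p = 0.164, adjusted p = 0.996 from limma), and rests on 2 libraries listed at 0 with the third as the highest of all 6. On the recovered reads it was -0.41 by edgeR and -0.50 by DESeq2, where Uqcrc2 was the most negative member (-0.81 and -0.87). The remaining subunit genes of complex IV, namely Cox5a, Cox5b, Cox6b1, Cox6c, Cox7a2l, Cox7b and Cox7c, had log2 fold changes between -0.41 and 0.07. Among them Cox7a2l, which joins complexes III and IV into supercomplexes, had 2965, 2622 and 1709 against 2082, 1734 and 1747.

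The assembly factors of complex IV had a median level of 119 normalized counts per kilobase, against 9305 for its subunits, and held the members with the highest limma fold changes. Cox10 and Cox15, the enzymes that convert heme B to the heme A of the oxidase, and Cox18, which inserts a mitochondrially made subunit into the membrane, had log2 fold changes of 3.06, 3.04 and 3.27. All 3 were at 0 or 1 read in the library labelled Trf1+/+ replicate 1. Cox10 had 0.891, 409 and 106 normalized counts against 331, 403 and 362. Cox15 had 0, 1.66 and 136 against 160, 17.5 and 66.8. In both genes the groups overlapped. Without that library Cox10 was at 0.80 and Cox15 at 1.62, and edgeR gave 1.01 for Cox10, 0.81 for Cox15 and 1.81 for Cox18 over all 6 libraries.

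Cox18 (chromosome 5, 90214724 to 90224001) had 0, 83.7 and 38.4 normalized counts in Trf1+/+ against 198, 176 and 84.1 in Trf1flox/flox. The groups did not overlap, by a margin of less than 1 normalized count. Its log2 fold change had a standard error of 1.78, an unadjusted p of 0.114 and an adjusted p of 0.996 from limma, and the estimate was 1.32 without the library labelled Trf1+/+ replicate 1. Cox19, a copper relay protein of the intermembrane space (chromosome 5, 139336189 to 139351418), was the other member without overlap and lay lower, with 878, 433 and 492 against 363, 327 and 417 for a log2 difference of -0.64 (standard error 0.76, adjusted p = 0.996 from limma). The 1 of 52 members that lay higher compares with 5.35% of all tested genes, the 1 that lay lower with 3.33%, and the 2 in all with 8.68%.

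Cox17, the chaperone that delivers copper to the oxidase, was nearly level in Trf1+/+, at 843, 809 and 827 normalized counts, and spread from 477 through 664 to 938 in Trf1flox/flox. Cox16 had 336, 256 and 178 against 172, 67.8 and 216, the lowest estimate of the assembly factors at -0.86 (standard error 0.85), but 88.7% of the 50-base stretches of its transcripts also occur in another annotated gene. The same holds for 50.5% to 84.8% of those of Cox7c, Cox11, Cox17, Atp5h and Atp5l, so their reads may be shared. Cox11, which also works in copper delivery, and Cox14, which acts on the newly made catalytic subunit, had log2 fold changes of 0.27 and 0.13. In all, 5 of the 8 assembly factors had estimates above 0 and their median was 0.20, equal to that of all tested genes.

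Complex V was the largest group and the most uniform in sign. All 17 genes had log2 fold changes below 0, from -0.51 to -0.04, and each was smaller in size than its limma standard error. After upper quartile scaling 12 were below 0, and without the library labelled Trf1+/+ replicate 1, 11 were. Atp5a1 and Atp5b encode the alpha and beta subunits of the catalytic F1 head. Atp5b (chromosome 10, 128083273 to 128090391) had 29084, 20419 and 16942 normalized counts in Trf1+/+ against 20149, 26843 and 17001 in Trf1flox/flox. Its means were 22148 ± 6253 and 21331 ± 5027 (SD, n = 3 each), and its log2 fold change of -0.04 (standard error 0.75) was the highest in the complex. Atp5a1 had 30201, 15695 and 10044 against 12308, 17979 and 9857, with a log2 difference of -0.38 (standard error 0.83) that became 0.05 without the library labelled Trf1+/+ replicate 1.

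The 3 genes of subunit c encode the same mature ring protein that proton flow turns. Atp5g1 had 15589, 14508 and 6353 normalized counts against 7908, 9580 and 11589, Atp5g3 had 13388, 11364 and 6747 against 6737, 6265 and 9318, and Atp5g2 had 818, 810 and 471 against 517, 696 and 617. Trf1+/+ replicates 1 and 2 were above all other libraries in each of the 3 genes, and Trf1+/+ replicate 3 lay below every Trf1flox/flox library in Atp5g1 and Atp5g2 and among them in Atp5g3. Atp5g1 and Atp5g2 are uncertain, since 66.0% and 100% of the 50-base stretches of their transcripts also occur in other genes, mostly pseudogenes. Atp5g3 had the most negative log2 fold change of the 3, at -0.46 (standard error 0.77). Atp5k, subunit e of the membrane part, had the lowest in the complex, at -0.51 (standard error 0.86), with 4707, 5260 and 2552 against 1483, 3121 and 4724. Without Trf1flox/flox replicate 1 it was at -0.05, and Atp5g3 was then lowest at -0.40. The inhibitor of reverse ATP hydrolysis, Atp5if1, is listed under the older symbol Atpif1 and so falls outside the naming rule. It had 4527, 2941 and 4120 against 3030, 5482 and 6697, a log2 difference of 0.34 (standard error 0.78).

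The subunit genes tended to be high or low together in the same libraries. Summed over the 44 subunit genes, the libraries had 477693, 409818 and 234352 normalized counts in Trf1+/+ against 252292, 317628 and 343492 in Trf1flox/flox. On this scale the Trf1+/+ sum ran from below the lowest to above the highest Trf1flox/flox library. The order depended on the scaling. As a share of all listed reads, Trf1flox/flox replicate 3 was highest and Trf1+/+ replicate 3 lowest. As a share of reads outside mitochondrial genes, the Trf1+/+ range again enclosed that of Trf1flox/flox. There Trf1+/+ replicate 2 was highest, and the library labelled Trf1+/+ replicate 1 lay below Trf1flox/flox replicate 3. Within groups, the median SD on the log2 scale was 0.51 over the subunit genes, against 2.17 over all tested genes and 0.65 over tested genes averaging at least 1000 normalized counts. The highest library of a subunit gene was a median of 2.23 times the lowest.

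**Figure D2:**
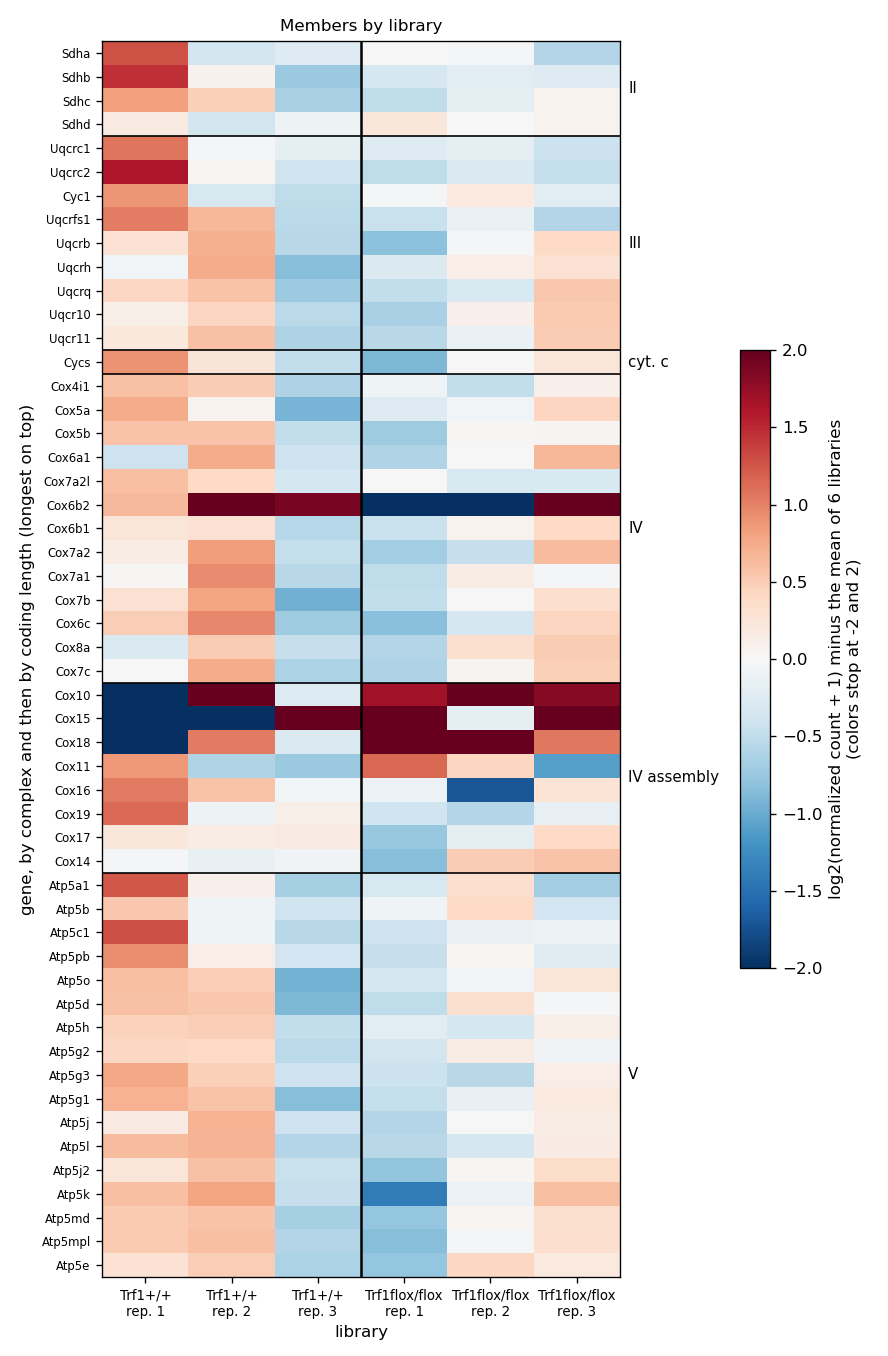
Log2(normalized count + 1) of each member (rows) in each of the 6 libraries (columns), minus the mean of that gene over the other libraries. Rows are ordered by complex and then by coding length. The color bar label names the mean of 6 libraries, but the library shown is left out of it. Red is above and blue below the mean, and colors stop at -2 and 2. Within most complexes the longest genes are reddest in the library labelled Trf1+/+ replicate 1, and Trf1+/+ replicate 3 and Trf1flox/flox replicate 1 are blue for most subunit genes.

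The library in which a subunit gene peaked followed the length of its coding sequence, a pattern noticed after the values were seen. Of the 14 subunit genes with a coding sequence of at least 500 bases, all 14 were highest in the library labelled Trf1+/+ replicate 1. Of the 30 shorter ones, 20 were highest in Trf1+/+ replicate 2, 6 in the library labelled Trf1+/+ replicate 1, 3 in Trf1flox/flox replicate 3 and 1 in Trf1flox/flox replicate 1. The limit of 500 bases was not varied, and genes lay close to it on both sides. Atp5d has 504 bases, whereas Atp5h (483, highest in Trf1+/+ replicate 2) and Sdhd (477, highest in Trf1flox/flox replicate 1) fall below it. The lowest library was Trf1+/+ replicate 3 for 21 of the 44 and Trf1flox/flox replicate 1 for 17. Catalytic and core subunits such as Sdha, Uqcrc1, Atp5a1 and Atp5b are in the longer class, and most accessory subunits are in the shorter class, so role and length go together in these genes.

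Deviation was taken on the log2 scale from the mean of the same gene over the other libraries. For the longer genes its median was 0.98, 0.09 and -0.54 in Trf1+/+ and -0.34, -0.09 and -0.25 in Trf1flox/flox libraries. For the shorter genes it was 0.36, 0.58 and -0.54 against -0.58, -0.01 and 0.33. Abundant genes in general were raised in the library labelled Trf1+/+ replicate 1. There the median deviation of 1188 listed nuclear genes averaging at least 1000 normalized counts was 0.76, against 0.55 over the subunit genes. It was 0.84 for the longer and 0.59 for the shorter of the 1188. Across the 44 genes, which share libraries and are not independent replicates, Spearman's rho between deviation and coding length was 0.69, -0.65 and 0.22 against 0.69, -0.10 and -0.78. Among 1188 listed nuclear genes averaging at least 1000 normalized counts, the same rho was 0.07, -0.22 and 0.24 against 0.26, 0.14 and -0.28. The sign was the same in 5 of the 6 libraries. The share of reads on mitochondrial genes was 20.8%, 35.4% and 41.8% in Trf1+/+ and 35.3%, 49.5% and 14.8% in Trf1flox/flox libraries, and its part in this pattern was not tested.

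**Figure D3:**
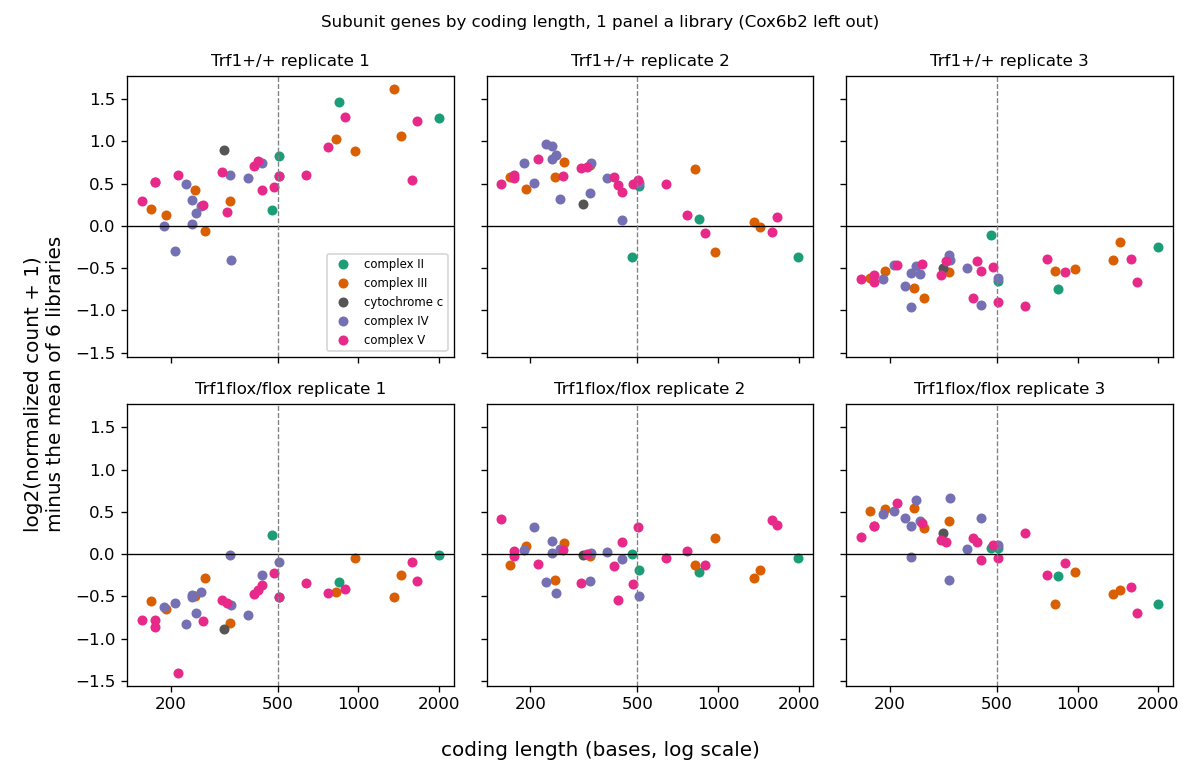
Log2 deviation of each subunit gene from its mean over the other libraries (y axis) against its coding length in bases (x axis, log scale). There is 1 panel for each library, and Cox6b2 is left out. The axis label names the mean of 6 libraries, but the library shown is left out of it. The dashed line marks 500 bases. Points rise with length in the library labelled Trf1+/+ replicate 1 and in Trf1flox/flox replicate 1, and fall with length in Trf1+/+ replicate 2 and Trf1flox/flox replicate 3.

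The 6 mitochondrially encoded subunits of complexes III to V moved apart from their nuclear partners. Summed, mt-Cytb, mt-Co1, mt-Co2, mt-Co3, mt-Atp6 and mt-Atp8 had 1207976, 1722936 and 2445458 normalized counts in Trf1+/+ against 1869036, 3058963 and 472603 in Trf1flox/flox libraries. Their ratio to the 39 nuclear subunit genes of the same complexes was 3.02, 4.69 and 12.0 against 8.51, 11.0 and 1.55. The mitochondrially encoded sum was mostly mt-Cytb (means 1185816 in Trf1+/+ and 1198205 in Trf1flox/flox) and mt-Co1 (392521 and 397439). By contrast, mt-Co2 had means of only 1526 and 1813. The lowest and the next to highest ratio were both in Trf1flox/flox libraries, so the genotypes overlapped. None of the 6 passed the test (log2 fold changes -0.42 to -0.05), and their direction was not stable. Without Trf1flox/flox replicate 3, 0 of 6 were below 0 and the median was 0.47, and by DESeq2 1 of 6 was below 0 with a median of 0.02. mt-Atp8 and mt-Atp6 overlap on the same strand, so their reads may be split unevenly.

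**Figure D4:**
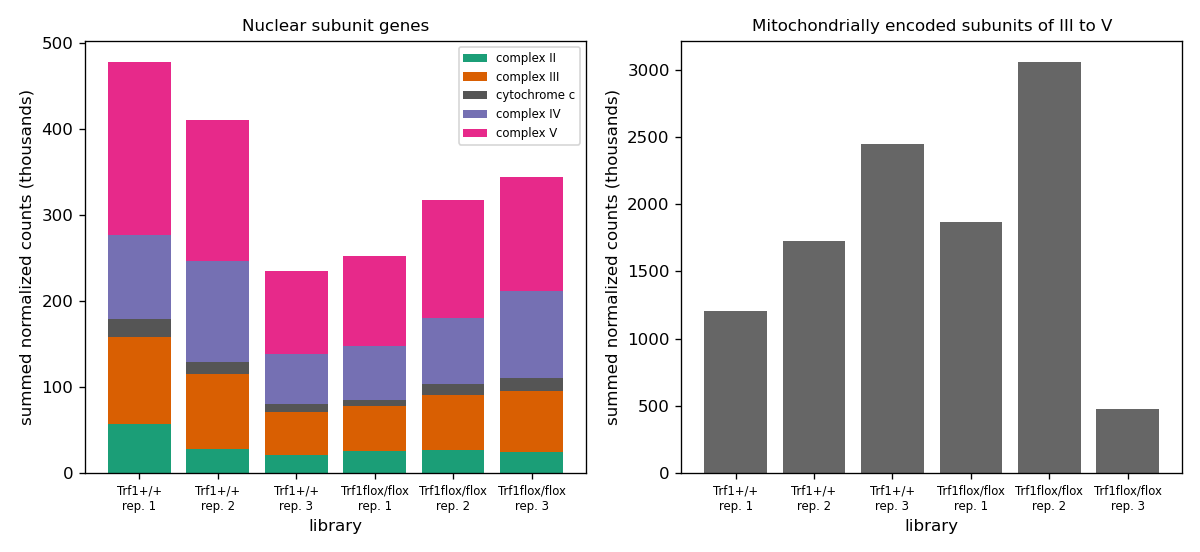
Summed normalized counts (y axes in units of 1000, starting at 0) in each of the 6 libraries (x axes), for the 44 nuclear subunit genes stacked by complex on the left and the 6 mitochondrially encoded subunits on the right. Trf1flox/flox replicate 3 has the lowest mitochondrially encoded sum and a nuclear sum near the middle.

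Other genes of the pathway were counted from fixed lists. Of 27 assembly factors of complexes II to V outside the naming rule, 25 were listed and 23 tested, and 0 passed at an adjusted or unadjusted p under 0.05. Their median log2 fold change was -0.29, and the smallest p belonged to Lyrm7 (log2 fold change -2.34, standard error 1.67) in the lower and Surf1 (2.72, standard error 2.16) in the higher direction. Lyrm7 guides the Rieske protein, and Surf1 helps build complex IV. Surf1, like Cox10, had a single read in the library labelled Trf1+/+ replicate 1 (0.891, 556 and 158 normalized counts against 357, 215 and 613). The 46 Nduf genes of complex I had a median of -0.22 with 37 below 0, close to the complexes described here.

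NRF1 and GABP are transcription factors known to act on promoters of respiratory genes, and their motifs were counted in RefSeq promoter windows (GRCm38.p6, 250 bases before to 50 after the start), which 41 of the 52 members matched by symbol. The NRF1 core, whose 10 bases are the capitals in the sequences of this paragraph and whose sixth base was left free, on either strand, was in windows of 10 of the 41 (24.4%) and of 5.19% of 27025 genes. The GABP core CCGGAAG was in 17 of the 41 (41.5%) and 9.93% of all genes, and 23 members held either motif, against 14.0% of all genes. The ERRalpha site TCAAGGTCA was in 2 members (4.88%, against 0.466%), the YY1 core AAGATGGCG, whose first 3 letters can be the last 3 of the GABP core, in 3 (7.32%, against 1.64%), and the TATA box TATAAA in 3 (7.32%, against 15.7%). The 27025 genes are all symbols with a window, whether or not they were tested here. These shares thus do not compare the members with other expressed genes. A match describes letters and does not show a binding site. Most of the 41 members lacked the NRF1 core in their windows. Matches that lie before the annotated gene are printed here with 10 bases on each side and the motif in capitals. They belong to Sdha, Sdhd, Cox6a1 and Atp5h, and other matches, such as those of Uqcrc1 in complex III, are not printed. Each is read toward the gene by the listed strand. For Sdhd and Atp5h, bases after the start were not found in annotated transcripts of the gene.
Sdha, 98 bases before the start, chr13:74350319-74350348, minus strand: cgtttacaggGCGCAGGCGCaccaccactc
Sdhd, 79 bases before the start, chr9:50603909-50603938, minus strand: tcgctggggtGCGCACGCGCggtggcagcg
Cox6a1, 162 bases before the start, chr5:115349101-115349130, minus strand: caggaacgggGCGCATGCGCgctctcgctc
Cox6a1, 117 bases before the start, chr5:115349056-115349085, minus strand: cggataaagtGCGCAGGCGCtggagttcct
Atp5h, 141 bases before the start, chr11:115420041-115420070, minus strand: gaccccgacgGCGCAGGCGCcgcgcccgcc

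The genes of these and related regulators were counted too. Of 12 regulators looked for, 11 were in the table, 0 passed at an adjusted p under 0.05 and 2 had an unadjusted p under 0.05, both lower, a direction that 1.01% of all tested genes passed: Gabpb2 (2055, 370 and 164 normalized counts against 90.2, 4.37 and 40.0, log2 fold change -4.20, standard error 1.49, adjusted p = 0.955 from limma) and Gabpa (998, 429 and 194 against 2.58, 19.7 and 229, log2 fold change -4.09, standard error 1.67). Gabpa encodes the DNA-binding part of GABP and Gabpb2 a partner subunit. Both were highest in the library labelled Trf1+/+ replicate 1. The 2.58 of Gabpa in Trf1flox/flox replicate 1 was 3 reads, the floor used here. Their estimates without Trf1+/+ replicate 1, or by edgeR and DESeq2, are not given here. Gabpa (chromosome 16, 84834925 to 84863779) also overlaps Atp5j (84827866 to 84835625). The kit does not mark strand, so reads of the overlap cannot be assigned to either gene by strand. Ppargc1a, the coactivator known for raising mitochondrial gene expression, had 2187, 2743 and 2429 against 2164, 789 and 751. Its groups did not overlap, although Trf1flox/flox replicate 1 nearly met the lowest Trf1+/+ library, and the log2 fold change was -1.17 (standard error 0.82). Gabpb2 was the other regulator without overlap. Of the 11 regulators, 2 thus lay lower and 0 higher, against 3.33% and 5.35% of all tested genes. Nrf1 had 0.891, 210 and 355 against 6.01, 14.2 and 20.7 with 1 read in the library labelled Trf1+/+ replicate 1.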

How the data were processed

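The 6 libraries, 1 per mouse, were grouped by the genotype in the labels, and replicates were numbered in accession order. The authors trimmed reads with bbduk, aligned them with TopHat 2.0.10 (Bowtie 1.0.0, SAMtools 0.1.19) and counted them per gene with HTSeq 0.6.1. The study names GRCm38 with GENCODE and the labels GRCm39, TopHat was run with a second-strand library type, and the HTSeq strand setting is not given in the sources used here. The kit does not mark strand, so overlapping and antisense genes cannot be told apart. The deposited values are a normalized count signal, in which reads are divided by 1 size factor per library, and 100% were whole multiples of 1 read within a tolerance of 0.001, so reads were recovered. Reads carry no molecular identifiers, so the floor of 3 reads covers counting error only.

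Genes that reached 10 normalized counts in 3 or more libraries were tested on log2(value + 1) with limma 3.58.1 in R 4.3.3, without a mean-variance trend, adjusting over all 9966 genes by Benjamini-Hochberg, where the pseudocount shrinks ratios between low values and a library at 0 can pull an estimate far out. The code was tested on simulated data. edgeR 4.0.16 and DESeq2 1.42.0 on recovered reads were alternatives. Gene positions, lengths and 50-base stretches came from GENCODE (GRCm38), and coding lengths from the principal transcript. Members and lists were chosen with earlier results of these data known. Named were catalytic subunits, isoform pairs, members without overlap and the extremes of each complex.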

Additional observations from a re-analysis of the deposited data

How the results depend on the processing

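Besides the 6 runs that left out a library, 9 other settings were tried, 1 of them (scaling to reads outside mitochondrial genes) chosen after the data were seen. The call on the members, 0 at an adjusted p under 0.05, was the same in all 15. Over all tested genes, DESeq2 called 58 at an adjusted p under 0.05 where limma called 0, and at an unadjusted p under 0.05 limma gave 454, edgeR 196, a minimum mean of 100 normalized counts 260, and leaving out a library 322 to 829, the highest without Trf1+/+ replicate 3. Leaving out a library gave 0 to 1 members at an unadjusted p under 0.05: Cox15 without Trf1+/+ replicate 3 and Cox6b2 without Trf1flox/flox replicate 3. The median log2 fold change of the complex II genes ran from -0.64 to 0.068, the latter without Trf1+/+ replicate 1. Of 52 members, 26 kept the sign of their log2 fold change in every setting. Upper quartile scaling and scaling outside mitochondrial genes reversed Atp5b (0.17 and 0.14), Atp5d (0.088 and 0.054), Atp5e (0.12 and 0.091), Atp5g2 (0.052 and 0.018), Atp5o (0.13 and 0.097), Cox7b (0.14 and 0.10), Cox7c (0.16 and 0.13), Cyc1 (0.18 and 0.15), Uqcr10 (0.20 and 0.17), Uqcr11 (0.12 and 0.086) and Uqcrq (0.072 and 0.038), and edgeR and DESeq2 reversed Uqcr10 (0.043 and 0.018). Leaving out a library gave -0.75 to 0.047 for Atp5a1, -0.22 to 0.17 for Atp5b, -0.68 to 0.085 for Atp5c1, -0.53 to 0.087 for Atp5d, -0.37 to 0.21 for Atp5e, -0.46 to 0.061 for Atp5j2, -0.57 to 0.033 for Atp5md, -0.50 to 0.14 for Atp5o, -0.14 to 0.79 for Cox11, -0.079 to 0.51 for Cox14, -0.30 to 0.40 for Cox5a, -0.23 to 0.36 for Cox6a1, -0.23 to 0.20 for Cox6b1, -0.51 to 0.12 for Cox7a1, -0.50 to 0.23 for Cox7b, -0.33 to 0.24 for Cox7c, -0.0365 to 0.42 for Cox8a, -0.26 to 0.32 for Cyc1, -0.60 to 0.082 for Sdha, -0.87 to 0.054 for Sdhb, -0.24 to 0.26 for Uqcr10, -0.38 to 0.12 for Uqcr11, -0.55 to 0.024 for Uqcrb, -0.24 to 0.42 for Uqcrh and -0.48 to 0.060 for Uqcrq. Cox10, Cox15 and Cox18 stayed above 0 and Cox6b2 below 0, with ranges of 0.80 to 4.68, 1.62 to 5.17, 1.32 to 4.52 and -5.32 to -2.02. The cause of these changes was not tested. No paired analysis was possible because the replicate numbers follow accession order and pair no mice. With 3 libraries a group, what could be detected was limited, and the limma standard errors near 0.8 also draw on the spread of all tested genes. With a mean-variance trend, limma gave Uqcrfs1 an unadjusted p of 0.152, against 0.440 without it. The lowest unadjusted p among the members was then 0.132, for Cox10.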
